A study of Mus musculus with 12 samples.

Results

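Transcripts of 10 skeletal muscle genes were followed in cells sorted as myeloid cells from regenerating mouse muscle. The genes were taken by symbol, as a set chosen with earlier results of these data known: the satellite cell genes Pax7 and Cdh15, the myogenic regulators Myod1 and Myog, the filament and fibre genes Des, Acta1, Ckm and Pvalb, and the developmental myosins Myh3 and Myh8. All 10 are in the count table, which holds 24421 symbols, and all 10 passed the filter on low counts that left 12981 genes for testing. RNA came from the tibialis anterior, a muscle of the lower leg, on day 5 after injection of notexin, a snake venom toxin that kills muscle fibres and spares many of their stem cells. The sorted cells were PI-negative (alive), CD45+ (leukocytes), CD11B+ (myeloid) and negative for LY6G and SIGLECF, which mark neutrophils and eosinophils, and the labels call them macrophages.

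The 4 groups held 3 libraries each and crossed the Ifngr1 genotype (wt/null or null/null) with the antibody given (isotype or anti-TNF). Ifngr1 is the ligand-binding chain of the interferon gamma receptor, and every mouse carried at least 1 null allele, the controls included. The antibodies were injected daily into the peritoneum after the injury. The comparisons ask how the levels of muscle transcripts in these cells depend on the receptor, on TNF neutralization and on the number that opens a sample's title. That number is 40 in 8 samples and 46 in 4, with 1 sample titled 46 in each group, and its meaning is not given. The labels do not say that each sample was a separate mouse, so p-values measure the spread between samples. They also give neither the age of the mice nor the cells in which the null allele acts.

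Skeletal muscle regenerates from satellite cells, stem cells that lie along the fibres and are held in that state by the transcription factor Pax7. After injury they divide as myoblasts under Myod1, then switch on Myog, leave the cell cycle, fuse, and build new fibres that first use developmental myosins and later adult ones. Macrophages enter the damaged muscle, engulf dead fibres and lie close to the dividing myoblasts. Possible sources of muscle gene RNA in a myeloid sort include engulfed fibre material, attached or co-sorted muscle cells and RNA released by the digest. A count of RNA from a sorted pool holds no measure that separates these sources from each other or from any other source.

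Libraries held 23.2 to 29.9 M counts (M stands for mega), and the 10 genes together gave 1674 to 3167 counts in a library. Levels are CPM, counts per M counts scaled by TMM, a method that sets libraries to a common scale. Ifngr1 was at 226 to 250 CPM in the 6 wt/null libraries and at 83.3 to 119 CPM in the 6 null/null libraries, with no overlap. Genes of the sort markers were present in every library, with Ptprc (CD45) at 718 to 1242 CPM and Itgam (CD11B) at 674 to 1047 CPM. Macrophage genes were high in every library. Lyz2 (lysozyme) was at 13272 CPM or more, Csf1r (the receptor of the macrophage growth factor CSF1) at 3157 CPM or more and Adgre1 (F4/80) at 1368 CPM or more. The globin genes Hba-a1, Hba-a2, Hbb-bs and Hbb-bt were listed at 0 in all 12 libraries. On the first principal component of all tested genes, with 34.4% of the variance, wt/null anti-TNF 2 and null/null anti-TNF 1 scored 54.2 and 45.9 while the other 10 libraries scored -20.8 to -3.47. For the followed genes, averaged antibody estimates of the main fit that rest on these 2 libraries are given with and without them. Estimates for gene lists, and antibody estimates within a title number, are from all 12 libraries only.

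The 10 genes summed to 68.1 to 122 CPM in a library, so muscle transcripts of this set were a small share of the RNA in every sample. Divided by exon length, so that genes can be compared, Acta1 was the most abundant at 32.3 ± 6.30 CPM per kb (mean ± SD over 12 libraries). Des followed at 5.84 ± 0.754, Myog at 4.23 ± 1.12, Ckm at 3.58 ± 1.04 and Pvalb at 2.996 ± 1.18 CPM per kb. Myod1 was at 1.24 ± 0.408, Cdh15 at 0.743 ± 0.354, Myh3 at 0.394 ± 0.0772, Pax7 at 0.135 ± 0.0918 and Myh8 at 0.100 ± 0.0406 CPM per kb. Only Acta1 stood clear of its neighbour in this order, with 23.1 CPM per kb or more against 6.90 or less for Des. For every other pair of neighbours the ranges over the 12 libraries overlapped. In RNA from a pool of cells, fewer cells of a type and less RNA per cell cannot be told apart.

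**Figure D1:**
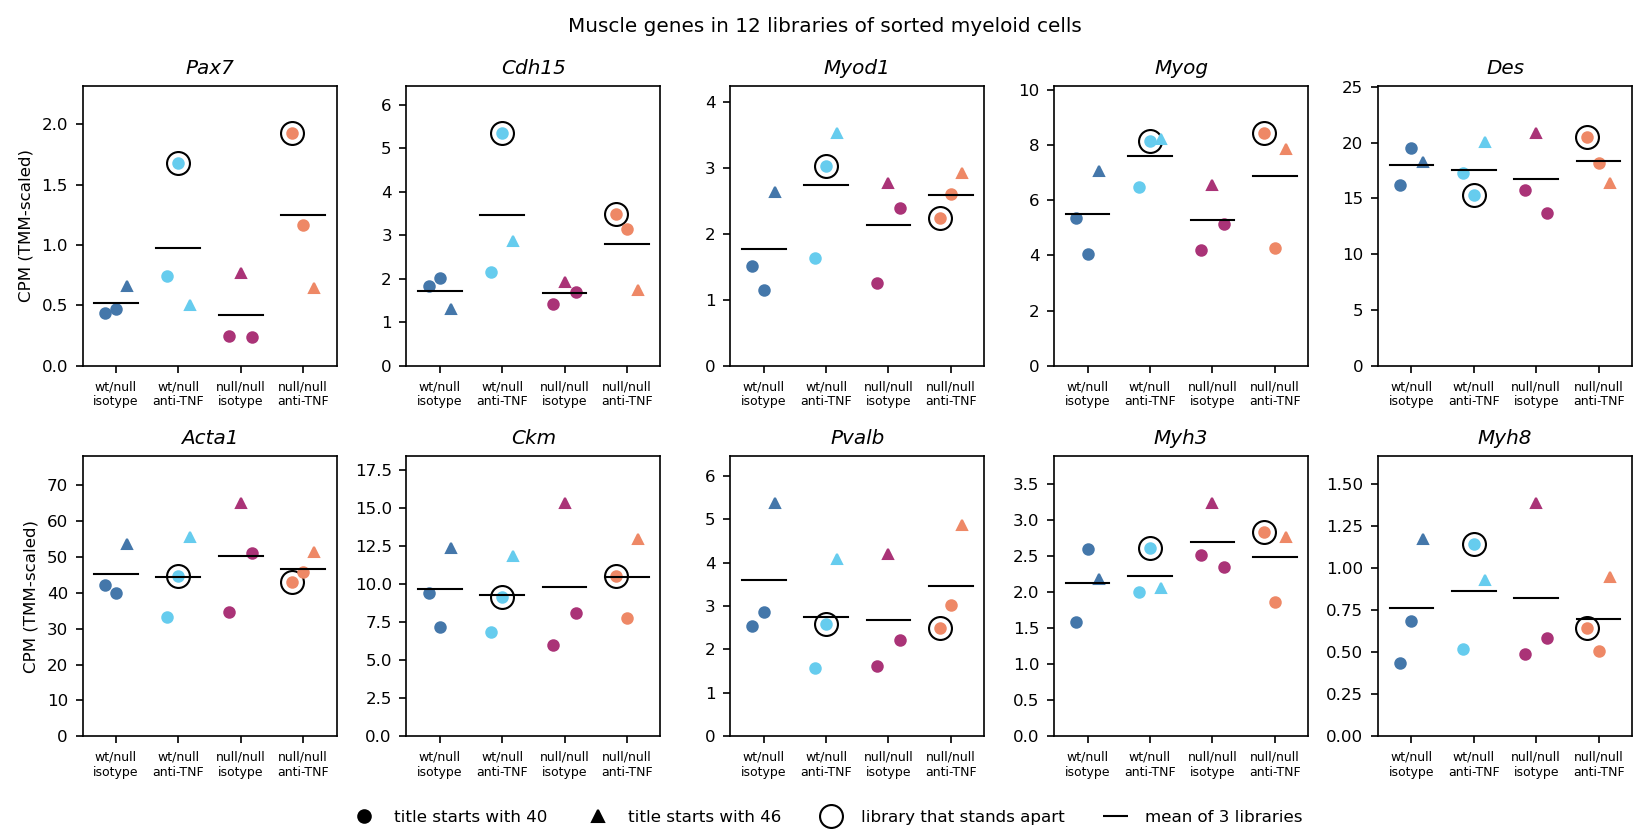
Level of each of the 10 muscle genes in CPM (y axes, from 0) in each of the 12 libraries, by group (x axes), with bars at the mean of 3 libraries, triangles for titles that start with 46 and rings around the 2 libraries that stand apart. The triangles for Acta1 sit between 51.4 and 65.0 CPM, all above the circles, and the ringed points for Pax7, at 1.68 and 1.93 CPM, sit above the other 10 libraries.

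The satellite cell genes had higher estimates under anti-TNF than under isotype antibody, and their 2 highest libraries were the 2 that stand apart. Pax7, the transcription factor that defines satellite cells (chr4:139737062-139833528, minus strand, GRCm38), was at 0.437, 0.470 and 0.658 CPM in wt/null isotype and at 0.744, 1.68 and 0.505 CPM in wt/null anti-TNF. It was at 0.244, 0.771 and 0.242 CPM in null/null isotype and at 1.93, 1.17 and 0.645 CPM in null/null anti-TNF. The highest levels were in null/null anti-TNF 1, wt/null anti-TNF 2 and null/null anti-TNF 2, and isotype and anti-TNF libraries overlapped in the range from 0.505 to 0.771 CPM. These levels rest on few reads: the 0.244 CPM of null/null isotype 1 is 6 counts, with an exact 95% Poisson interval of 0.0896 to 0.531 CPM that covers counting error only.

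Averaged over genotype, the Pax7 estimate was 2.34-fold higher under anti-TNF (log2 fold change 1.23 ± 0.42 SE, edgeR adjusted p = 0.660). The difference did not pass the threshold of adjusted p below 0.05. On the log2 scale it was 0.88 ± 0.59 for the wt/null mice, for the null/null mice 1.57 ± 0.60, and the difference between genotypes, the interaction, had an adjusted p of 1.00 in edgeR. Without the 2 libraries that stand apart the averaged log2 estimate was 0.68 ± 0.40 (adjusted p = 1.00, edgeR).

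Cdh15 encodes M-cadherin, a cell adhesion protein of satellite cells and myoblasts (chr8:122847966-122867397, plus strand). It was at 1.83, 2.01 and 1.32 CPM in wt/null isotype, at 2.16, 5.36 and 2.87 CPM in wt/null anti-TNF, at 1.42, 1.93 and 1.69 CPM in null/null isotype and at 3.49, 3.15 and 1.75 CPM in null/null anti-TNF. In wt/null the 3 anti-TNF libraries lay above the 3 isotype libraries, and in null/null 1 anti-TNF library, the one titled 46, lay among the isotype values. The averaged estimate was 1.83-fold (log2 fold change 0.87 ± 0.26 SE, adjusted p = 0.660, edgeR), and with the 2 outlying libraries left out it was 0.55 ± 0.23 (adjusted p = 1.00, edgeR).

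Both genes were also read by antibody within each title number. Among the 8 libraries titled 40, all 4 anti-TNF libraries lay above all 4 isotype libraries for Pax7 (0.744 CPM or more against 0.470 or less) and for Cdh15 (2.16 CPM or more against 2.01 or less), and 3.73% of all tested genes showed the same separation. Of the 4 libraries titled 46, the isotype pair was at 0.658 and 0.771 CPM of Pax7 and the anti-TNF pair at 0.505 and 0.645, so both anti-TNF libraries were the lower ones. For Cdh15 the same isotype pair was at 1.32 and 1.93 CPM and the anti-TNF pair at 2.87 and 1.75, which overlap. One fit to all 12 libraries with an antibody by title number term, added after the data were seen, gave log2 estimates for Pax7 of 2.00 ± 0.39 within title 40 and -0.34 ± 0.54 within title 46 (adjusted p = 0.226 and 1.00, edgeR). For Cdh15 they were 1.02 ± 0.30 and 0.48 ± 0.43 (adjusted p = 0.239 and 1.00). Of the 4 anti-TNF libraries titled 40, 2 are the libraries that stand apart, and that fit was not repeated without them. The other anti-TNF libraries titled 40 were at 0.744 and 1.17 CPM of Pax7 and at 2.16 and 3.15 CPM of Cdh15. The difference, title 46 minus title 40, was -2.33 ± 0.67 for Pax7 and -0.54 ± 0.52 for Cdh15 (adjusted p = 0.963 for both, edgeR), so neither was shown to differ between the title numbers. In that fit edgeR called 0 of the 10 genes, and 0% of all tested genes, within title 40, within title 46 or for the difference. At an unadjusted p below 0.05 were 3, 0 and 1 of the 10, where 15.2%, 0.871% and 4.28% of all tested genes were.

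Over the 8 comparisons 0 of the 10 genes were called by edgeR. For the average over genotype of anti-TNF against isotype, 0% of all 12981 tested genes were called, while 2 of the 10, Pax7 and Cdh15, were at an unadjusted p below 0.05 against 7.31% of all tested genes (4.08% higher). DESeq2 called 0 of the 10 in that comparison, where it gave no adjusted p for Pax7, Cdh15, Myod1 and Myog, and limma voom called 0.

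A list of 14 satellite cell genes, with Pax7, Cdh15 and Des among them, was read in the same fit. Of the 13 tested, 12 had a higher estimate under anti-TNF averaged over genotype, with a median log2 fold change of 0.34, where all tested genes had 51.6% higher estimates and a median of 0.01. None of the list was called (0 in edgeR), and 5 were at an unadjusted p below 0.05, all higher: Pax7, Cdh15, the growth factor receptor Fgfr4, the myogenic factor Myf5 and Chodl, the last 3 named after their values were seen. Of all tested genes 7.31% were below that p (4.08% higher). The most abundant of the list after Des were Itga7, an integrin of muscle cells, at 0.37 ± 0.25 on the log2 scale, Peg3 at 0.27 ± 0.22 and Heyl, a target of Notch, at 0.34 ± 0.16. For 5 of the 13 tested genes both libraries that stand apart lay above the other 10, a pattern that 11.7% of all tested genes shared and that 2 of the 10 followed genes, Pax7 and Cdh15, had. The summed level of the list was 46.1 and 52.1 CPM in those 2 libraries and 29.3 to 44.7 CPM in the other 10. The list was not refitted without those 2 libraries.

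The 2 libraries that stand apart also differed in markers of other cells. The summed level of 10 fibro-adipogenic genes was 640 and 413 CPM there and 728 to 1794 CPM in the other 10 libraries, and that of 8 mural cell genes was 36.4 and 33.0 CPM against 62.1 to 117 CPM. The sum of 8 neutrophil genes was 198 and 206 CPM against 114 to 156, and that of 10 endothelial genes 82.0 and 76.5 against 53.8 to 75.6. The defining markers Col1a1, Pdgfrb and Pecam1 were above 0 in every library. Genes of the sorted cells differed in these 2 libraries as well. Ptprc was at 1242 and 1189 CPM against 718 to 951 in the other 10, and Lyz2 at 14613 and 13272 against 15360 to 19014. Itgam was at 674 and 996 CPM against 847 to 1047, while Csf1r and Adgre1 lay within the range of the other 10. For anti-TNF averaged over genotype, 6 of 7 dendritic cell genes had higher estimates (median log2 fold change 0.88), 8 of 10 endothelial genes (0.29) and 4 of 5 tested lymphoid genes (1.62), with 0 called by edgeR. Of all tested genes 51.6% had higher estimates. Both libraries that stand apart lay above the other 10 for 5 of the dendritic, 3 of the endothelial and 3 of the lymphoid genes. The same held for 4 of 12 macrophage and monocyte genes. Of all tested genes 11.7% had that pattern. The dendritic sum was 961 and 1021 CPM in these 2 libraries and 922 to 1421 CPM in the other 10. The part of these cells in the levels of Pax7 and Cdh15 was not tested.

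The myogenic regulators were higher in the libraries titled 46 within most groups. Myod1, which commits cells to the muscle lineage (chr7:46376474-46379099, plus strand), was at 1.51, 1.15 and 2.63 CPM in wt/null isotype, at 1.64, 3.03 and 3.53 CPM in wt/null anti-TNF, at 1.26, 2.78 and 2.39 CPM in null/null isotype and at 2.24, 2.61 and 2.92 CPM in null/null anti-TNF. In each of the 4 groups the library titled 46 was the highest of the 3, by 1.21 to 1.98 times the mean of the other two. Across groups the libraries overlapped, since wt/null anti-TNF 2, titled 40, reached 3.03 CPM and the lowest titled 46 was at 2.63 CPM. With the 4 group means in the fit, libraries titled 46 were 1.53-fold higher (log2 fold change 0.61 ± 0.23 SE, adjusted p = 0.395, edgeR).

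Myog encodes myogenin, which switches on terminal differentiation (chr1:134289989-134292548, plus strand). It was at 5.36, 4.06 and 7.06 CPM in wt/null isotype, at 6.48, 8.15 and 8.23 CPM in wt/null anti-TNF, at 4.19, 6.56 and 5.15 CPM in null/null isotype and at 8.45, 4.28 and 7.86 CPM in null/null anti-TNF. The library titled 46 was the highest in 3 of the 4 groups, and null/null anti-TNF 1, one of the 2 that stand apart, had the highest level of all. The estimate for the title number was 0.39 ± 0.18 on the log2 scale (adjusted p = 0.507, edgeR). For anti-TNF averaged over genotype it was 0.42 ± 0.19 for Myog (adjusted p = 0.660) and 0.44 ± 0.27 for Myod1 (adjusted p = 0.669), both from edgeR. With the 2 outlying libraries left out these estimates were 0.30 ± 0.21 and 0.45 ± 0.30, and with the title number as a block in addition they were 0.21 ± 0.14 and 0.34 ± 0.23 (adjusted p = 1.00 for each, edgeR).

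Of 12 tested genes of myogenic regulation and fusion, 9 had a higher estimate in the libraries titled 46 and 10 under anti-TNF, with median log2 fold changes of 0.26 and 0.25, and 0 were called by edgeR in either. Of all tested genes 47.8% and 51.6% had higher estimates, with medians of -0.01 and 0.01. Beside Myog and Myod1 the most abundant were Mef2c, which myeloid cells make as well, and Cdkn1c, an inhibitor of the cell cycle. Mef2c was at 80.8 to 123 CPM with a log2 estimate of -0.12 ± 0.12 for the title number, and Cdkn1c at 7.20 to 15.9 CPM with 0.31 ± 0.15. A total of 3 genes of this list were at an unadjusted p below 0.05 for the title number, all higher, against 9.83% of all tested genes (5.52% higher). Myod1 and Myog, already given above, were among these 3. The summed level of the list, most of it Mef2c, was 115 to 138 CPM in the libraries titled 46 and 105 to 147 CPM in those titled 40.

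Of the filament and fibre genes, Acta1, Ckm and Pvalb were higher in every library titled 46 than in any titled 40. Acta1 encodes the actin of skeletal muscle thin filaments (chr8:123891769-123894751, minus strand). It was at 42.2, 39.9 and 53.5 CPM in wt/null isotype, at 33.4, 44.7 and 55.5 CPM in wt/null anti-TNF, at 34.6, 65.0 and 51.2 CPM in null/null isotype and at 42.9, 45.8 and 51.4 CPM in null/null anti-TNF. The highest of each group was the library titled 46, and all 4 of these (51.4 to 65.0 CPM) lay above all 8 titled 40 (33.4 to 51.2 CPM, median 42.6), though the highest titled 40 and the lowest titled 46 nearly met. The title estimate was 1.34-fold (log2 fold change 0.43 ± 0.11 SE, adjusted p = 0.227, edgeR).

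Ckm, the creatine kinase of muscle that buffers ATP (chr7:19404776-19422841, plus strand), was at 9.41, 7.18 and 12.4 CPM in wt/null isotype, at 6.85, 9.17 and 11.8 CPM in wt/null anti-TNF, at 5.98, 15.3 and 8.12 CPM in null/null isotype and at 10.6, 7.82 and 13.0 CPM in null/null anti-TNF. Again the library titled 46 was the highest in all 4 groups, and the 2 sets did not overlap (11.8 to 15.3 CPM against 5.98 to 10.6 CPM). The title estimate was 1.62-fold (log2 fold change 0.70 ± 0.15 SE, adjusted p = 0.162, edgeR).

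Pvalb encodes parvalbumin, a calcium buffer of fast fibres (chr15:78191114-78206400, minus strand), and had the largest estimate of the 10 genes for the title number. It was at 2.54, 2.87 and 5.37 CPM in wt/null isotype, at 1.56, 2.58 and 4.08 CPM in wt/null anti-TNF, at 1.63, 4.20 and 2.21 CPM in null/null isotype and at 2.50, 3.03 and 4.86 CPM in null/null anti-TNF. The 4 libraries titled 46 (4.08 to 5.37 CPM) lay above all 8 titled 40 (1.56 to 3.03 CPM), at 1.76 to 2.19 times the mean of the other two of their group. The title estimate was 1.97-fold (95% interval 1.53 to 2.53, log2 fold change 0.98 ± 0.16 SE, adjusted p = 0.153, edgeR). The 2 libraries that stand apart, at 2.58 and 2.50 CPM, lay within the range of the others titled 40.

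In edgeR 0 of the 10 genes were called for the title number, where 0.0154% of all tested genes were. At an unadjusted p below 0.05 were 6 of the 10, all higher in the libraries titled 46, against 9.83% of all tested genes (5.52% higher). The 46 library was highest in all 4 groups for 4 of the 10, Acta1, Ckm, Pvalb and Myod1, and for 2.68% of all tested genes, and all libraries titled 46 lay above all titled 40 for Acta1, Ckm and Pvalb and for 0.585% of all tested genes. The call depended on the setting for 2 genes. Ckm and Pvalb were called by DESeq2 (adjusted p = 0.00527 and 2.01e-04), by limma voom with sample quality weights (adjusted p = 0.0274 and 0.0253) and by edgeR without the 2 libraries that stand apart (log2 fold changes 0.81 and 1.03, adjusted p = 0.0218 and 0.0211). Those 3 settings also called more of all genes, with 150, 110 and 82 against 2.

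**Figure D2:**
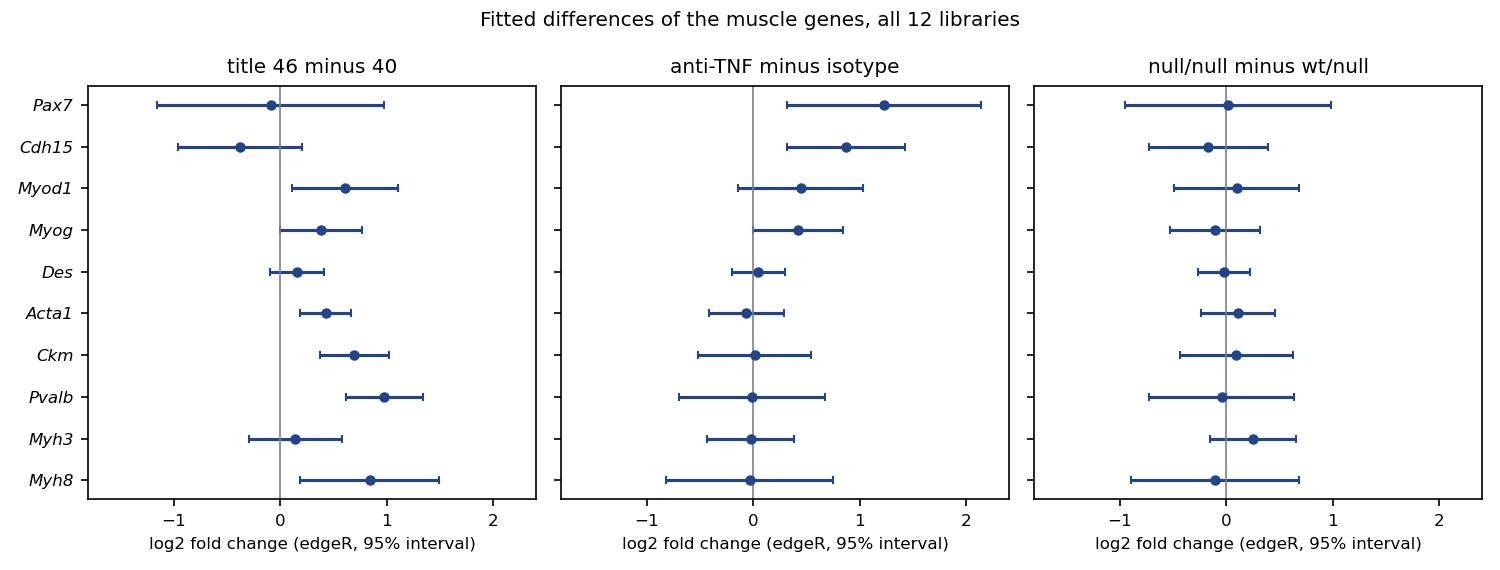
Fitted log2 fold changes of the 10 muscle genes (points) with 95% intervals (bars) from edgeR on all 12 libraries, for title 46 against 40, anti-TNF against isotype and null/null against wt/null. Pvalb, at 0.98, has the largest estimate for the title number and Pax7, at 1.23, the largest for the antibody, while the estimates for the genotype lie between -0.17 and 0.25.

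Because Acta1, Ckm and Pvalb were the genes whose libraries titled 46 and 40 did not overlap, their promoters are shown. The sequences are those of RefSeq (GRCm38.p6), from 250 bases before the transcript start to 50 after it and read 5′ to 3′ on the gene's strand, and capitals mark matches to the E-box CANNTG, which the myogenic regulators bind, or to the motif of MEF2, both searched on both strands. Acta1 is chr8:123894726-123895025 (minus strand), Ckm chr7:19410844-19411143 (plus strand) and the first start of Pvalb chr15:78206351-78206650 (minus strand).
Acta1: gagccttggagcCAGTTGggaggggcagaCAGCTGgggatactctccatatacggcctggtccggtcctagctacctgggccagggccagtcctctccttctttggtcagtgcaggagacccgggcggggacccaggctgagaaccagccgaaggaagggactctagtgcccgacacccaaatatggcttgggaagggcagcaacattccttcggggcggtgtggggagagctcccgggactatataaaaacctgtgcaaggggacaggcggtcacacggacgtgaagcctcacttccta
Ckm: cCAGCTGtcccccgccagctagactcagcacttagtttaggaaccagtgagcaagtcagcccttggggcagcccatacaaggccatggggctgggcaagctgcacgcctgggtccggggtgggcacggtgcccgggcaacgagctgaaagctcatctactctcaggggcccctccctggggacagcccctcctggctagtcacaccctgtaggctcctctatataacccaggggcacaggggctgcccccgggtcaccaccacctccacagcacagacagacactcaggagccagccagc
Pvalb: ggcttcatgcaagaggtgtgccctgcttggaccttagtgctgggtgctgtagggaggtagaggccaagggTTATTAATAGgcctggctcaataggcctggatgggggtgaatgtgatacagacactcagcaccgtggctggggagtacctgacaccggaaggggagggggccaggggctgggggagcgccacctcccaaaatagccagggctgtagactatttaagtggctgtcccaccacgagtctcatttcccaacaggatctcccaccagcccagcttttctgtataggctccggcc

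Acta1 held 2 E-boxes and Ckm 1, each with the form CAGCTG among them, and the first Pvalb start held no E-box and 1 MEF2 match. The second Pvalb start, at chr15:78204188-78204487, held 2 E-boxes. The table has promoters for 9 of the 10 genes, 10 starts in all, and 80.0% of these held an E-box, 30.0% CAGCTG and 20.0% a MEF2 match. Of all 32851 promoters of the same length in the table, 72.3% held an E-box, 16.3% CAGCTG and 3.19% a MEF2 match. A match describes the letters and is no evidence of binding.

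Des, which encodes desmin, the intermediate filament of muscle cells (chr1:75360329-75368579, plus strand), showed no such separation. It was at 16.2, 19.5 and 18.3 CPM in wt/null isotype, at 17.3, 15.4 and 20.1 CPM in wt/null anti-TNF, at 15.8, 20.9 and 13.7 CPM in null/null isotype and at 20.5, 18.2 and 16.4 CPM in null/null anti-TNF. Libraries titled 46 (16.4 to 20.9 CPM) and 40 (13.7 to 20.5 CPM) overlapped over most of their range, and the coefficient of variation over 12 libraries, 12.9%, was the lowest of the 10 genes. The title estimate was 0.16 ± 0.12 on the log2 scale (adjusted p = 0.675, edgeR).

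Other genes of adult fibres were read from a list of 37, of which 34 were tested and which contains Acta1, Ckm and Pvalb. For the title number 30 of the 34 had a higher estimate, with a median log2 fold change of 0.35, where all tested genes had 47.8% higher estimates and a median of -0.01. None was called (0 in edgeR), 13 were at an unadjusted p below 0.05, all higher, and for 9 the library titled 46 was the highest in all 4 groups. Acta1, Ckm and Pvalb, already given above, are among the 13 and the 9 and are part of the sum below. Of all tested genes 9.83% were below that p (5.52% higher), and 2.68% were highest in title 46 in all 4 groups. The summed level of the list was 374 to 415 CPM in the 4 libraries titled 46 and 283 to 340 CPM in the 8 titled 40, with no overlap. Beside Acta1 the most abundant were the tropomyosin Tpm1, which many cells make, at 0.21 ± 0.13 on the log2 scale, Myom1 at -0.17 ± 0.08 and the fast myosin light chain Mylpf at 0.53 ± 0.18. For anti-TNF averaged over genotype the same list had 18 higher estimates of 34 and a median of 0.01.

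Lists of markers of other cells also had estimates mostly in 1 direction for the title number, though their summed levels overlapped between titles 46 and 40. All 7 tested mural genes of 8 had lower estimates in the libraries titled 46 (median -0.37), as did 9 of 10 fibro-adipogenic genes (median -0.23) and 14 of 17 tested engulfment genes (median -0.08), with 0 called by edgeR. Of all tested genes 47.8% had higher estimates. Lower at an unadjusted p below 0.05 were 2 mural, 1 fibro-adipogenic and 2 engulfment genes, where 9.83% of all tested genes were below that p in either direction. The summed mural level was 62.1 to 74.0 CPM in the 4 titled 46 and 33.0 to 117 CPM in the 8 titled 40. The fibro-adipogenic sum was 728 to 1141 CPM against 413 to 1794 CPM, and the engulfment sum, of the receptors and bridging proteins with which macrophages take up dead cells, 15613 to 19103 CPM against 16911 to 19687 CPM. The 2 tested eosinophil genes of 5 had higher estimates (median 0.60), with summed levels of 8.71 to 13.0 CPM against 6.36 to 10.2 CPM and Epx at 0 in every library. The sum of 7 dendritic cell genes was 1099 to 1421 CPM against 922 to 1169 CPM. The part of these cells in the levels of the fibre genes was not tested.

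**Figure D3:**
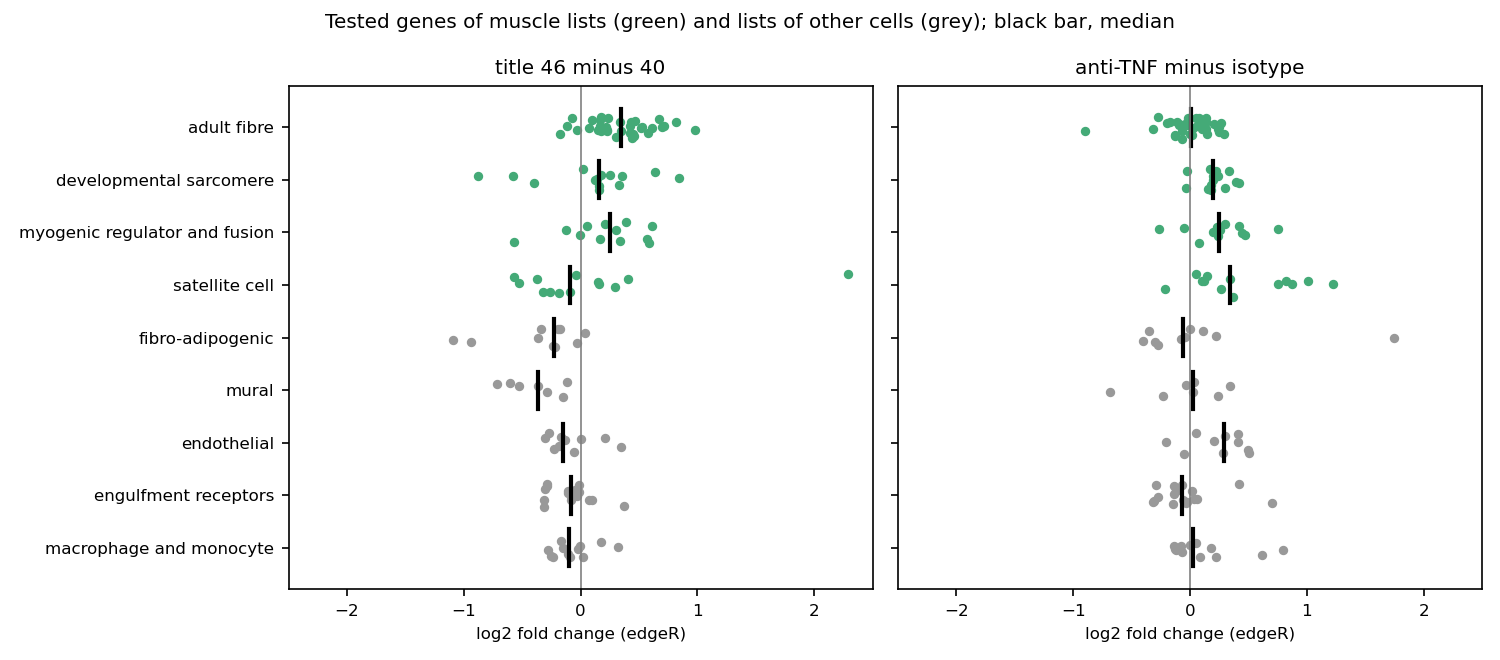
Fitted log2 fold changes (x axes, edgeR) of the tested genes of 4 muscle lists (green) and 5 lists of other cells or functions (grey), each point a gene and each black bar the median of its list. For title 46 against 40 the adult fibre list has its median at 0.35 and the mural list at -0.37, and for anti-TNF against isotype the satellite cell list has its median at 0.34 and the adult fibre list at 0.01.

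The developmental myosins, which new fibres use before adult ones, were present at low counts. Myh3, the embryonic myosin heavy chain (chr11:67078300-67102291, plus strand), was at 1.59, 2.61 and 2.18 CPM in wt/null isotype, at 2.01, 2.62 and 2.06 CPM in wt/null anti-TNF, at 2.52, 3.24 and 2.35 CPM in null/null isotype and at 2.84, 1.87 and 2.77 CPM in null/null anti-TNF. Neither genotype, antibody nor title number separated these libraries. Its largest averaged estimate was that for the genotype, 0.25 ± 0.19 on the log2 scale (adjusted p = 1.00, edgeR), and that for the title number was 0.14 ± 0.20.

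Myh8, the perinatal myosin heavy chain (chr11:67277124-67308634, plus strand), was at 0.437, 0.684 and 1.18 CPM in wt/null isotype, at 0.521, 1.15 and 0.932 CPM in wt/null anti-TNF, at 0.488, 1.39 and 0.588 CPM in null/null isotype and at 0.644, 0.506 and 0.949 CPM in null/null anti-TNF. The library titled 46 was the highest in 3 of the 4 groups, and the exception was wt/null anti-TNF 2, one of the 2 that stand apart. The title estimate was 1.79-fold (log2 fold change 0.84 ± 0.30 SE, adjusted p = 0.385, edgeR). Counts were 11 to 36 in a library.

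Part of the Myh8 count is uncertain because its transcript shares sequence with neighbouring myosin genes. Of the 50-base stretches of its longest transcript, 21.4% also occur in transcripts of other genes, with 11.8% in Myh2, 9.56% in Myh1 and 9.31% in Myh4, where Myh3 had 4.81% and Acta1 2.22% and the other 7 genes none. How the deposited counting treated such reads is not given in the sources used here. The window below shows this: bases 3001 to 3060 of the Myh8 reading frame on chromosome 11 (GENCODE M21, GRCm38) are identical in Myh8, Myh4, Myh1 and Myh2, and Myh3 differs at 7 of the 60 bases, which are in capitals.
Myh8, Myh4, Myh1 and Myh2: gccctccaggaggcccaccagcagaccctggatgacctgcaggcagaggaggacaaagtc
Myh3: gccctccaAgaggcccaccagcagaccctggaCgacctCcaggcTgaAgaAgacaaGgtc

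Among 6 myosin heavy chains compared per kb of exon, Myh3 made up 29.4% to 49.5% of their sum in a library, the fast adult isoform Myh4 22.5% to 41.7% and Myh1 5.87% to 35.8%. Myh4, Myh1 and Myh2 carry stretches shared with Myh8, so all 6 shares depend on how such reads were counted. Myh8 made up 5.66% to 13.2%, the slow isoform Myh7 0% to 5.47% and Myh2 0% to 1.50%, with at most 11 counts of Myh7 and 3 of Myh2 in a library. The share of Myh8 was 10.2% to 13.2% in the 4 libraries titled 46 and 5.66% to 12.7% in the 8 titled 40, where the 12.7% is again wt/null anti-TNF 2. Myh8 gave 34.2 to 54.0 counts per 100 of Myh3 in the libraries titled 46 and 19.4 to 43.8 in those titled 40. Developmental and adult isoforms were thus both present in all 12 libraries.

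**Figure D4:**
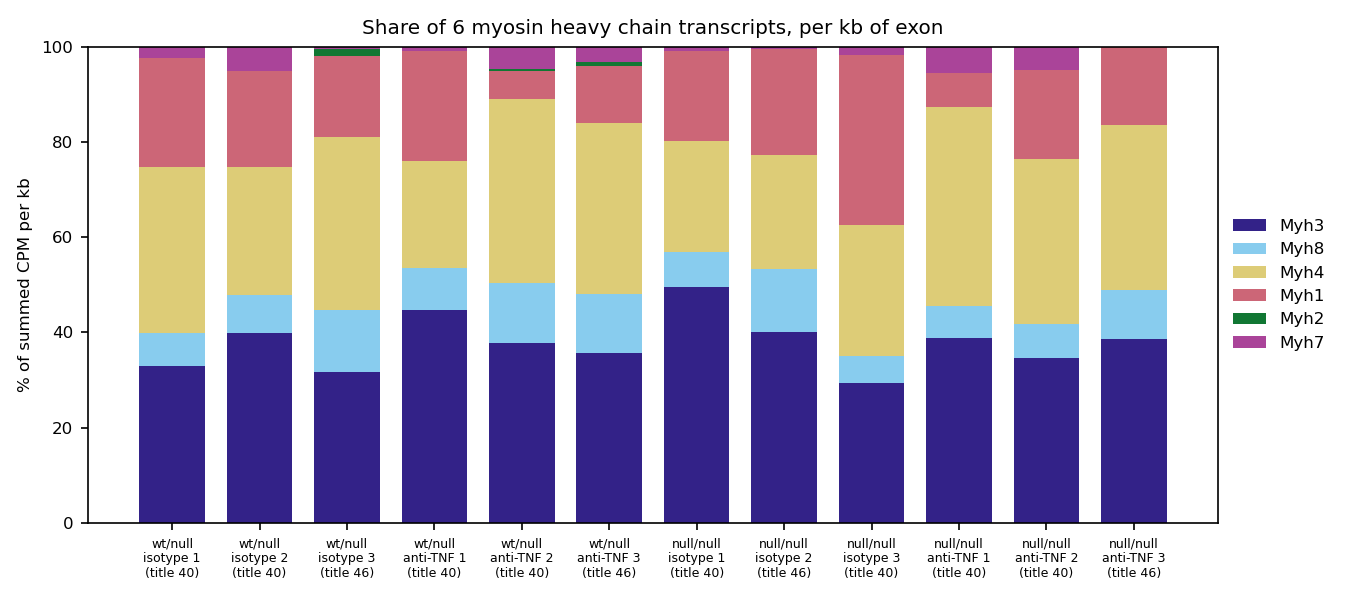
Share of 6 myosin heavy chain transcripts in each of the 12 libraries (stacked bars, % of their summed CPM per kb of exon). Myh3 (29.4% to 49.5%) and Myh4 (22.5% to 41.7%) make up most of each bar, and Myh8 has its highest share, 13.2%, in null/null isotype 2, titled 46.

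Of 14 genes of the developmental sarcomere and its junctions, all tested, 11 had higher estimates in the libraries titled 46 (median log2 fold change 0.16) and 12 under anti-TNF (median 0.20), with 0 called by edgeR in either. Of all tested genes 47.8% and 51.6% had higher estimates, with medians of -0.01 and 0.01, and 0.0154% and 0% were called. At an unadjusted p below 0.05 were 2 genes of the list for the title number, both higher, and 0 for the antibody. Of all tested genes 9.83% and 7.31% were below that p. The most abundant were H19, an imprinted RNA of growing tissue, at 0.33 ± 0.16 for the title number, Igf2, a growth factor, at 0.12 ± 0.18, the cardiac actin Actc1, which new fibres use, at 0.63 ± 0.24 and Myl4, an embryonic light chain, at 0.02 ± 0.16, all on the log2 scale. Actc1 spanned 10.9 to 12.04 CPM in the libraries titled 46 and 4.91 to 14.3 CPM in those titled 40.

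The sums below describe the libraries and test nothing, since each gene summed had already shown the split. Acta1, Ckm and Pvalb each lay higher in every library titled 46 than in any titled 40. Pax7 and Cdh15 each lay highest in the 2 libraries that stand apart. Des, which overlapped between the title numbers, is in neither sum. In these sums satellite cell and fibre transcripts did not rank the libraries alike. The sum of Acta1, Ckm and Pvalb was 69.2 to 84.6 CPM in the 4 libraries titled 46 and 41.8 to 61.6 CPM in the 8 titled 40. The sum of Pax7 and Cdh15 was 7.04 CPM in wt/null anti-TNF 2 and 5.42 CPM in null/null anti-TNF 1, and 1.67 to 4.32 CPM in the other 10 libraries. The 2 libraries highest in the satellite cell sum were at 56.5 and 56.0 CPM of the fibre sum, within the range of those titled 40.

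**Figure D5:**
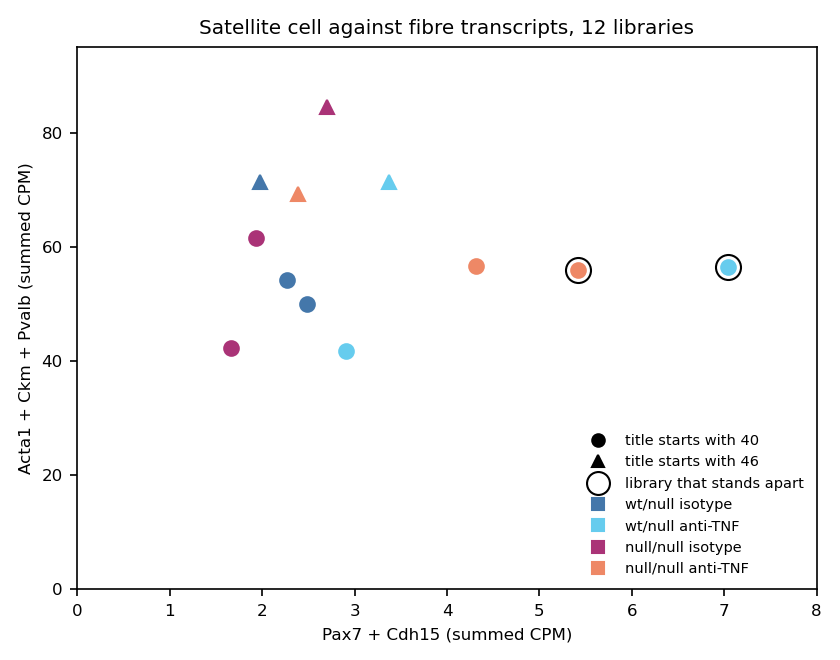
Summed CPM of Acta1, Ckm and Pvalb (y axis) against summed CPM of Pax7 and Cdh15 (x axis) in the 12 libraries, with colour for group, triangles for titles that start with 46 and rings for the 2 libraries that stand apart. Triangles lie highest, at 69.2 to 84.6 CPM of fibre transcripts, and the ringed libraries lie farthest right, at 7.04 and 5.42 CPM of satellite cell transcripts. Each gene summed had already shown its split alone, and Des is in neither sum.

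Ratios between genes of 1 library do not depend on its scaling. Pax7 gave 3.75 and 4.50 counts per 100 of Acta1 in the 2 libraries that stand apart, 2.23 and 2.54 in the other 2 anti-TNF libraries titled 40, and 0.472 to 1.26 in the remaining 8. Pvalb gave 6.47 to 10.0 counts per 100 of Acta1 in the libraries titled 46 and 4.32 to 7.18 in those titled 40, and Ckm 21.3 to 25.3 and 15.9 to 24.6. Des, in contrast, gave 31.9 to 36.2 counts per 100 of Acta1 in those titled 46 and 26.7 to 51.7 in those titled 40. The fibre genes thus did not hold 1 fixed ratio, and each pair of ranges overlapped between the title numbers.

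The null/null genotype gave no call among the 10 genes. Null/null against wt/null, averaged over antibody, 0 of the 10 were called by edgeR (0.00770% of all tested genes) and 0 were at an unadjusted p below 0.05 (2.46% of all tested genes, 1.28% higher). The 10 log2 estimates ran from -0.17 for Cdh15 to 0.25 for Myh3, and their 95% intervals together spanned -0.95 to 0.98, with Pax7 the widest. Intervals for Des (-0.26 to 0.23), Acta1 (-0.24 to 0.46) and Myh3 (-0.15 to 0.66) were the narrowest. The same counts held within each antibody, with 0 called against 0.00770% of all tested genes under isotype and 0.00770% under anti-TNF, and 0 at an unadjusted p below 0.05 against 1.80% (0.940% higher) and 1.98% (0.809% higher). DESeq2 and limma voom called 0 of the 10 in these 3 comparisons.

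Within a genotype, anti-TNF against isotype also gave 0 calls among the 10 in edgeR (0% of all tested genes in either). At an unadjusted p below 0.05 was 1 gene in wt/null, Cdh15, with a log2 estimate of 1.01 ± 0.36 (adjusted p = 0.895), and 1 in null/null, Pax7, with 1.57 ± 0.60 (adjusted p = 0.947), where 4.48% (2.80% higher) and 3.48% (1.94% higher) of all tested genes were. For the interaction 0 of the 10 were called (0% of all tested genes) and 0 were at an unadjusted p below 0.05 (1.51%, 0.740% higher), with log2 estimates from -0.39 for Myh8 to 0.76 for Pvalb. The other 6 genes, from Des to Myh8, had averaged antibody estimates between -0.06 and 0.05, with 95% intervals that spanned -0.42 to 0.29 for Acta1 and -0.82 to 0.75 for Myh8. DESeq2 and limma voom called 0 of the 10 in these 3 comparisons as well.

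The genes whose levels over the 12 libraries were most like those of the most abundant gene of each class are given as a description, since the libraries share group, title number and scaling. For Acta1 these were Slc16a3, a lactate transporter, with Pearson r 0.93 (Spearman 0.89), the fibre light chain Myl1 with 0.91 (0.89) and Tbc1d10a with 0.91 (0.83), and Ckm ranked 27 (0.86) and Pvalb 62 (0.82) of 12980 genes. With the 2 libraries farthest from the Acta1 median left out, r was 0.86, 0.87 and 0.81 for the first 3, 0.79 for Ckm and 0.77 for Pvalb. For Myog they were Snx22 with 0.94 (0.92), Xcr1, a chemokine receptor of dendritic cells, with 0.91 (0.88) and Nxpe4 with 0.91 (0.95), or 0.94, 0.90 and 0.84 without the 2 libraries farthest from its median. For Cdh15 they were 4933434E20Rik with 0.96 (0.94), Trappc5 with 0.95 (0.90) and Tmem173, the DNA sensor adaptor STING, with 0.94 (0.87), and Pax7 ranked 334 (0.77). Without the 2 libraries farthest from the Cdh15 median these were 0.90, 0.86, 0.85 and, for Pax7, 0.53. For Myh3 they were Sfswap with 0.84 (0.76), Zfp516 with 0.83 (0.89) and Ctu2 with 0.83 (0.82), and no other of the 10 genes exceeded Myh8 at 0.58. Without the 2 libraries farthest from the Myh3 median these were 0.71, 0.68, 0.74 and, for Myh8, 0.23. None of the 3 genes most like Myog, Cdh15 or Myh3 was on a muscle list.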

How the data were processed

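Messenger RNA of 12 samples was measured. The authors deposited counts per gene symbol that are not normalized. Per the labels' protocols, RNA was isolated with an RNeasy Micro kit, and a stranded NEBNext Ultra II kit for mRNA gave libraries for paired-end reads on a NextSeq instrument. Per the submitters' processing notes bcl2fastq 2.20, STAR, Bowtie and the build mm10 were used, with no role stated. Not given in the sources used here are the counting tool, its strand setting and the annotation. Reads of overlapping genes may therefore be shared.

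Columns were matched to samples by title, with 0 left over, and replicates were numbered in listed order. In R 4.3.3, edgeR 4.0.16 was used to filter genes (filterByExpr), to scale libraries (TMM) and to fit robust quasi-likelihood models with 1 mean per group to all 12 libraries, with the title number added for its own comparison. Tests were two-sided, with Benjamini-Hochberg adjustment over all 12981 tested genes and calls at an adjusted p below 0.05. An SE is the log2 fold change divided by the root of the F statistic. Log2 CPM values for principal components and correlations used a prior count of 2. Positions and exon lengths come from GENCODE M21 (GRCm38, the same build as mm10), which holds 95.7% of the symbols. Alternatives were DESeq2 1.42.0, limma 3.58.1 voom, relative log expression scaling, other filters, the title number or the first 3 characters of the title as a block, an antibody by title number term, subsets of libraries and each library left out in turn.

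All 10 genes are named. Of each list up to 4 genes of highest mean CPM are named. The genes and the 15 lists were chosen with earlier results of these data known. Mymk and Mymx were not matched by symbol, and the former was read under its older symbol Tmem8c.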

Additional observations from a re-analysis of the deposited data

Results flagged for a closer look

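Over the 10 genes, 60 sets of libraries of 1 genotype, antibody or title number were examined for a library far from the rest, and 2 stood out. Chance flags about 1 in 20 such sets. Myod1 in null/null isotype 1, at 1.26 CPM, was the lowest of the 6 null/null libraries, and its gap to the next, at 2.24 CPM, took a share of 0.678 of the whole range, above the critical value of 0.625. Myh8 in wt/null anti-TNF 2, at 1.15 CPM, was the highest of the 8 libraries titled 40, with a gap share of 0.547 to the next at 0.684 CPM, above the critical value of 0.526. The second of these is a library that stands apart on the first principal component.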

How the results depend on the processing

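Of 286 recomputed log2 fold changes under 25 other settings, 274 kept their direction and their side of the threshold, 6 passed the threshold and 6 changed direction. A missing adjusted p was counted as not past the threshold. DESeq2 gave none for Pax7, Cdh15, Myod1 and Myog in the averaged antibody comparison. The count of called genes among the 10 stayed at 0 in every comparison and setting except the title number, where it was 2 (Ckm and Pvalb) with DESeq2, with limma voom and without the 2 libraries that stand apart, and 0 with each library left out in turn. All 6 changes of direction were of Pax7. Its antibody estimate was -0.34 within the libraries titled 46. Its title estimate, -0.09 on all libraries, turned to 0.25 without the 2 libraries that stand apart and to 0.11, 0.31, 0.05 and 0.33 when wt/null anti-TNF 2 or 3 or null/null anti-TNF 1 or 3 was left out, within a range of -0.65 to 0.33 over all 12 libraries left out in turn. The cause was not tested.

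For Pvalb the title estimate ranged from 0.91 to 1.05, for Ckm from 0.55 to 0.81 and for Acta1 from 0.36 to 0.49. The antibody estimate ranged from -0.34 to 2.03 for Pax7 and from 0.48 to 1.03 for Cdh15. With the title number as a block the antibody estimates were 1.20 for Pax7 and 0.85 for Cdh15. Samples also share the first 3 characters of their titles, a code whose meaning is not given. With that code as a block, an alternative added after the data were seen, the antibody estimates were 1.05 for Pax7 and 0.91 for Cdh15 (adjusted p = 0.532 and 0.486, edgeR). In that setting 0 of the 10 genes were called in any comparison of groups. Code 40A holds only anti-TNF and 40B only isotype libraries, so the averaged antibody estimate then rests on codes 40C and 46C. The only anti-TNF libraries coded 40C are the 2 that stand apart, so this setting cannot show whether the estimate depends on them. Genes called for the title number moved to 7 without group terms and between 0 and 86 with 1 library left out, with 86 when null/null isotype 2 was left out and 0 when either of the wt/null libraries titled 46 was. DESeq2 called 4 genes for the averaged genotype and 14 for the averaged antibody, against 1 and 0. Pax7 and Myh8, at 6 to 51 and 11 to 36 counts, are limited most by depth.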
